A study of Rattus norvegicus with 8 samples.

Results

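The class II genes of the rat major histocompatibility complex (MHC, called RT1 in the rat) were followed from animal to animal in diaphragm, the main breathing muscle. The 6 genes were RT1-Bb and RT1-Ba, RT1-Da and RT1-Db1, the invariant chain Cd74 and the class II transactivator Ciita. They were found by gene symbol among the 17055 rows of the deposited count table. All 6 were present, and all 6 passed the filter on low counts together with 10522 genes in all. The set was selected on the counts of RT1-Bb, which were at or near 0 in some animals, so the pattern of RT1-Bb itself is given as a description without a test. The animals were 8 Sprague-Dawley rats, an outbred stock, sampled 16 weeks after chest surgery. In 4 of them (MI, replicates 1 to 4) a myocardial infarction had been made by tying the left anterior descending coronary artery. The 4 Sham animals (replicates 5 to 8) had the same thoracotomy without the tie. All 8 were anaesthetised with isoflurane and ventilated for the surgery. Each diaphragm gave 1 RNA sequencing library of 7941402 to 24967251 counts, and the labels name no batch.

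Class II molecules are pairs of an alpha and a beta chain that carry peptides to the cell surface, where CD4 T cells read them. RT1-Ba and RT1-Bb encode the alpha and beta chains of RT1-B, and RT1-Da and RT1-Db1 those of RT1-D. The invariant chain, Cd74, holds newly made pairs until a peptide is loaded, and Ciita is the coactivator without which class II genes are hardly transcribed. In muscle these genes are mainly expressed by dendritic cells, macrophages and B cells lying between the fibres, not by the fibres themselves. The chain genes are among the most polymorphic in mammals, so outbred animals often carry different alleles.

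The promoters of the 4 chain genes are shown here because class II promoters are where Ciita acts and because 3 of these genes varied together below. In the textbook layout Ciita is recruited by factors bound at an X box, where the RFX complex sits, and a Y box, an inverted CCAAT that binds NF-Y. RefSeq sequences of the GRCr8 assembly were found for 5 of the 6 genes, all but Ciita. Below are the 250 bases before each start, 5′ to 3′ on the strand of the gene. Capitals mark the longest run shared by all 4 windows, CTGATTGG, which contains the inverted CCAAT, and the letters AGCAAC, as found in X boxes.
RT1-Da, chr20:4515165-4515414, plus strand: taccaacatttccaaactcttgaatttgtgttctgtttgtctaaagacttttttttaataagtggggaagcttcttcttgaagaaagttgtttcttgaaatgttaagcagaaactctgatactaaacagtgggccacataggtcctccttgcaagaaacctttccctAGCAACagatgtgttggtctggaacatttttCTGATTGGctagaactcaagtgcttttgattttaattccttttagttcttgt
RT1-Db1, chr20:4560163-4560412, minus strand: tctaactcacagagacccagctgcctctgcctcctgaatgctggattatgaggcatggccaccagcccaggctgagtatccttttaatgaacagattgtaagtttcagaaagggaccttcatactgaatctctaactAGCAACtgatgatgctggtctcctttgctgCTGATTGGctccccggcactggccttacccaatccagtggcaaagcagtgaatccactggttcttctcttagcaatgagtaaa
RT1-Ba, chr20:4576807-4577056, plus strand: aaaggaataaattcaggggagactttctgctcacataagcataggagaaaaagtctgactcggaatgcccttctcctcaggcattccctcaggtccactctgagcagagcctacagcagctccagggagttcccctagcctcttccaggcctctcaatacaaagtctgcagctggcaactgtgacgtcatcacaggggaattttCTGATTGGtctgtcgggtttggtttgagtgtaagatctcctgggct
RT1-Bb, chr20:4604119-4604368, minus strand: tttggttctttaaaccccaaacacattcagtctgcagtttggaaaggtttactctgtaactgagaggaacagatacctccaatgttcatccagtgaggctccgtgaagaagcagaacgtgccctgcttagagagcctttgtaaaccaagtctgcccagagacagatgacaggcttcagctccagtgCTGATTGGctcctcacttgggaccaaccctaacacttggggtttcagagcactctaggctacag

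The shared run ended 45 bases before the start in RT1-Da, 76 in RT1-Db1, 39 in RT1-Ba and 57 in RT1-Bb. On either strand it occurred in 3.19% of 33469 promoter windows of the same length. The shorter CCAAT, which it overlaps, occurred in 34.0%. AGCAAC was in the windows of RT1-Da, RT1-Db1 and Cd74, and in 12.1% of all windows. Those letters were not in the windows of RT1-Ba or RT1-Bb, which says nothing about whether RFX binds there. The shared run was not in the window of Cd74. These are reference sequences, not those of the animals studied, and the motifs were chosen after the sequences were seen. In that assembly RT1-Ba and RT1-DOb are the protein-coding neighbours of RT1-Bb on chromosome 20, whereas Cd74 is on chromosome 18 and Ciita on chromosome 10.

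RT1-Bb fell into separate high and near-zero values. In MI replicates 1 to 4 it had 157, 1, 1 and 92 counts, and in Sham replicates 5 to 8 it had 86, 162, 0 and 147. Scaled to counts per 1000000 (CPM) with normalised library sizes, these were 10.49, 0.061, 0.085 and 10.6 in MI and 6.30, 10.4, 0 and 18.1 in Sham. The near-zero libraries were MI replicates 2 and 3 and Sham replicate 7, so both groups held both kinds of value. No library lay between 1 and 86 counts. A floor of 3 counts corresponds to 0.116 CPM in Sham replicate 7, the deepest library, 0.183 in MI replicate 2 and 0.254 in MI replicate 3, for counting error only. The library with 0 counts was the deepest of the 8.

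RT1-Ba, the alpha chain that pairs with the product of RT1-Bb, was present in every animal. It was at 24.9, 25.8, 41.99 and 26.5 CPM in MI and at 18.3, 24.1, 34.9 and 21.5 CPM in Sham. The 2 highest animals, MI replicate 3 and Sham replicate 7, both belonged to the libraries near 0 for RT1-Bb, and the other of those libraries, MI replicate 2, was at 25.8 CPM, near the median of 25.4. Counts of RT1-Bb were 29.6% (exact 95% binomial interval 25.8 to 33.7) of the counts of the pair in MI replicate 1. They were 28.6% (23.7 to 33.8) in MI replicate 4, 25.6% (21.0 to 30.6) in Sham replicate 5 and 30.2% (26.3 to 34.2) in Sham replicate 6. In Sham replicate 8 they were 45.7% (40.1 to 51.3), the highest share. MI replicate 2 was at 0.236% (up to 1.31), MI replicate 3 at 0.201% (up to 1.12) and Sham replicate 7 at 0%, with an upper bound of 0.407%. These intervals cover counting error only, since amplified reads are not independent molecules, and they test nothing between animals.

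**Figure D1:**
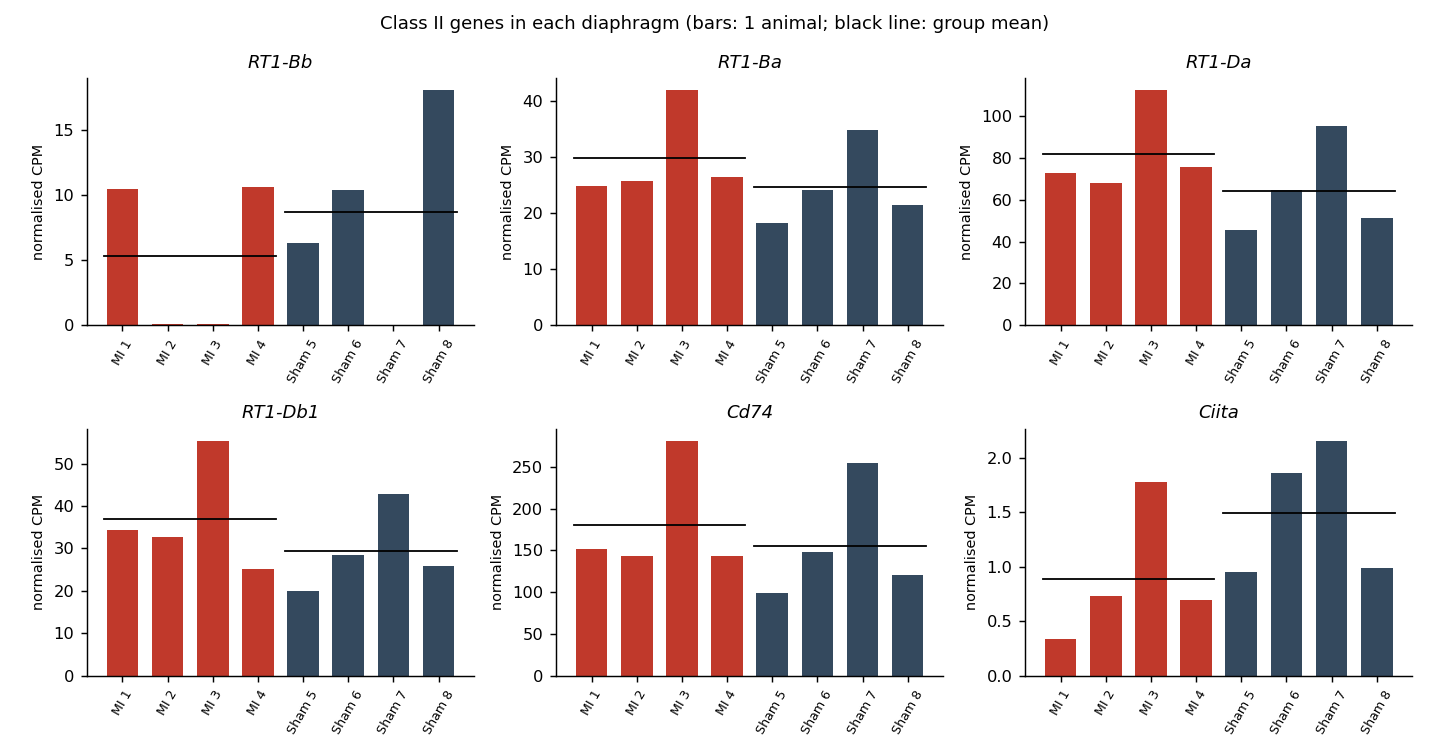
Normalised CPM of the 6 genes in each of the 8 diaphragms, MI in red and Sham in dark grey-blue, with 1 bar per animal and a black line at each group mean. RT1-Bb was near 0 in MI replicates 2 and 3 and Sham replicate 7, where the other 5 genes were all present.

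The RT1-D pair did not share the gap. RT1-Da, its alpha chain, was at 72.7, 67.9, 112.4 and 75.5 CPM in MI and at 45.3, 64.9, 95.1 and 51.2 CPM in Sham. RT1-Db1, its beta chain, was at 34.3, 32.8, 55.5 and 25.2 CPM in MI and at 19.99, 28.5, 42.8 and 25.8 CPM in Sham. For both genes MI replicate 3 was highest and Sham replicate 7 second, and Sham replicate 5 was lowest.

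Cd74, which serves both pairs, followed the same order at the top. It was at 151.4, 143.7, 281.7 and 143.2 CPM in MI and at 99.2, 148.2, 254.8 and 120.1 CPM in Sham. The remaining 6 animals lay between 99.2 and 151.4 CPM. Ciita was far less abundant, with 5, 12, 21 and 6 counts in MI and 13, 29, 56 and 8 in Sham. In CPM this was 0.334, 0.734, 1.78 and 0.692 in MI and 0.952, 1.87, 2.16 and 0.984 in Sham, with a floor of 0.116 to 0.369 CPM across libraries. Sham replicate 7 was highest, and MI replicate 3 was the 1 MI animal above the lowest Sham animal.

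Within an animal the chain genes other than RT1-Bb varied by at most 1.41-fold in proportion to Cd74. RT1-Ba had 0.137 to 0.185 counts per Cd74 count over the 8 animals, a 1.35-fold range, although Cd74 itself ranged 2.84-fold. RT1-Da had 0.373 to 0.527 counts per Cd74 count (1.41-fold) and RT1-Db1 had 0.168 to 0.228 (1.36-fold). Sham replicate 7 had the lowest of each of the 3 ratios. Next lowest was MI replicate 3 for RT1-Ba (0.149) and RT1-Da (0.399), and MI replicate 4 for RT1-Db1 (0.176). Cd74 was highest in MI replicate 3 and Sham replicate 7, and in the other animals it ran only from 99.2 to 151.4 CPM. For RT1-Bb the ratio to Cd74 was 0.0693, 0.000425, 0.000301 and 0.0741 in MI, and 0.0635, 0.0703, 0 and 0.151 in Sham. RT1-Bb thus lay far below its usual proportion to Cd74 in 3 animals and above it in Sham replicate 8. As a count per RT1-Ba count, Sham replicate 8 had 0.840 where the next highest animal had 0.432.

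**Figure D2:**
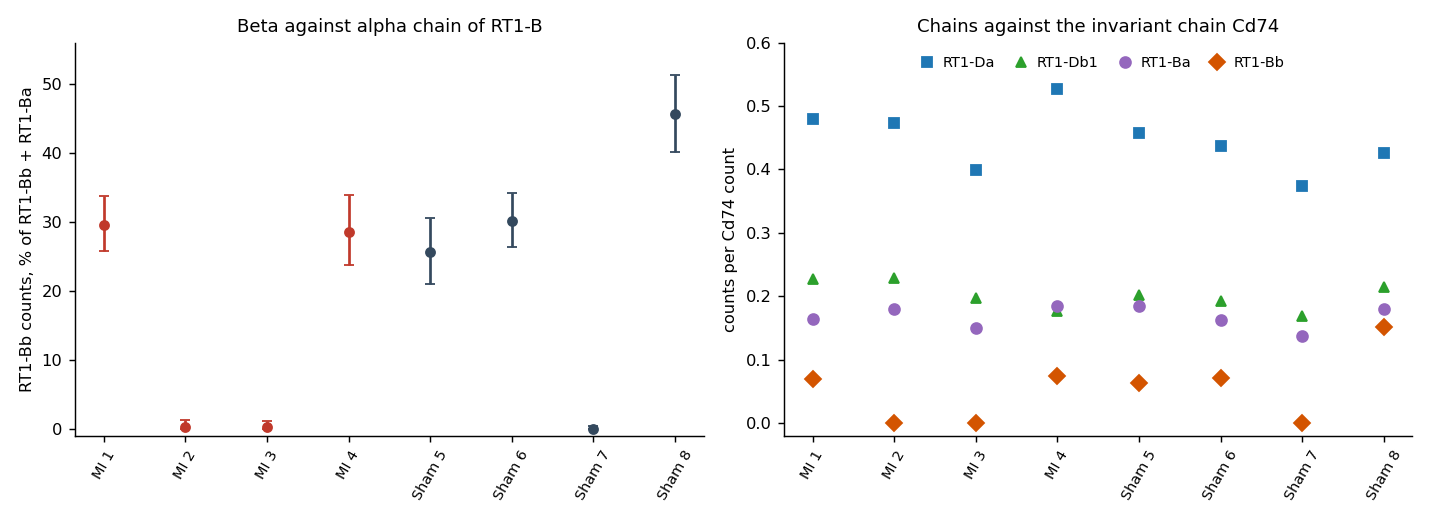
Left, RT1-Bb counts as a percentage of RT1-Bb plus RT1-Ba counts in each animal, with exact 95% binomial intervals, MI in red and Sham in dark grey-blue. Right, counts of each chain gene per Cd74 count in the same animals, where RT1-Da, RT1-Db1 and RT1-Ba stay within 1.41-fold and RT1-Bb does not.

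RT1-Ba, RT1-Da, RT1-Db1 and Cd74 varied together from animal to animal. Over the 8 animals Pearson's r of log2 CPM was 0.916 to 0.981 for the 6 pairs of these genes. By exact two-sided permutation over 10 pairs of members in all, their adjusted p was 0.000992 to 0.00355. Spearman's rho was 0.738 to 0.976, with an adjusted permutation p of 0.00397 to 0.0764. MI replicate 3 and Sham replicate 7 lay apart from the rest in Cd74. Over the other 6 animals r was 0.734 to 0.966, with an unadjusted exact permutation p of 0.00556 to 0.106 and an adjusted p of 0.0556 to 0.176. Without the 2 animals farthest from the median of the first gene of each pair r was 0.735 to 0.960. Among 10154 other genes of at least 1 CPM on average, the 3 whose pattern was most like that of Cd74 were RT1-Ba (r = 0.98), RT1-Da (0.96) and RT1-Db1 (0.95). Lrig2 and Exo5 came next, each at 0.92.

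For Ciita no such relation passed the test. Its r was 0.350 to 0.539 with these 4 genes (adjusted exact permutation p of 0.250 to 0.397, n = 8), and rho was 0.143 to 0.357 (adjusted 0.535 to 0.752). Over the 6 animals without MI replicate 3 and Sham replicate 7 all 4 values were below 0, from -0.397 to -0.215, so the positive values rested on those animals. With the 2 farthest animals left out they ran from -0.215 to 0.421. Counts of 5 to 56 set the precision here. Because RT1-Bb fell into separate high and near-zero values, no pooled correlation with it was tested.

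**Figure D3:**
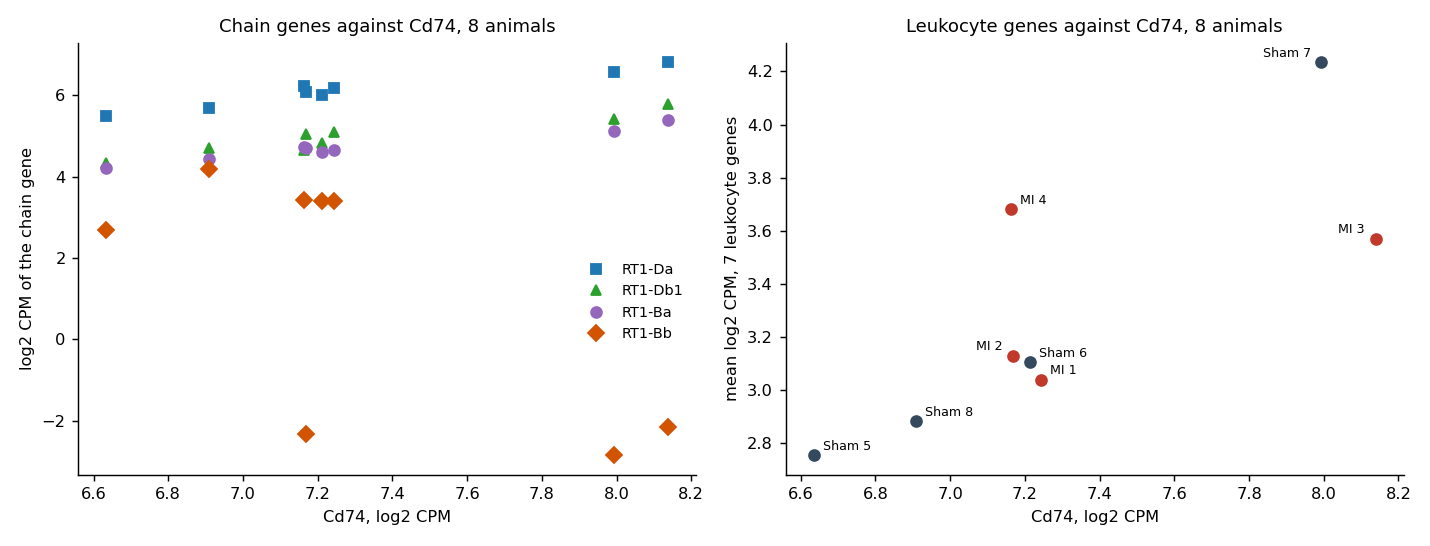
Left, log2 CPM of the 4 chain genes against that of Cd74, with 1 symbol per gene and animal. RT1-Da, RT1-Db1 and RT1-Ba climb with Cd74, while RT1-Bb has 3 animals near the bottom at Cd74 levels from the middle to the top. Right, mean log2 CPM of 7 leukocyte genes against Cd74, MI in red and Sham in dark grey-blue, with Sham replicate 7 highest on the leukocyte axis and MI replicate 3 on the Cd74 axis.

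The spread of RT1-Bb between animals was among the widest in the table. Its SD over 8 animals was 3.07 on the log2 CPM scale (prior count 2), against a median of 0.206 for the 10155 genes of at least 1 CPM on average. Genes at or above that SD made up 0.0197% of these, namely RT1-Bb itself and Myh4, the type IIB myosin heavy chain (3.10). Fam111a (3.04), Kera (2.77) and Magea11 (2.76) followed. The SD of RT1-Bb depends on the prior count because of its near-zero values, and it was 3.77 with a prior count of 0.5. The place of RT1-Bb in this order may depend on that choice. The other members varied more than most genes but by far less. Their SDs were 0.376 for RT1-Ba, 0.428 for RT1-Da, 0.463 for RT1-Db1, 0.511 for Cd74 and 0.775 for Ciita. Since these genes were brought in as partners of RT1-Bb, the values are a description.

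**Figure D4:**
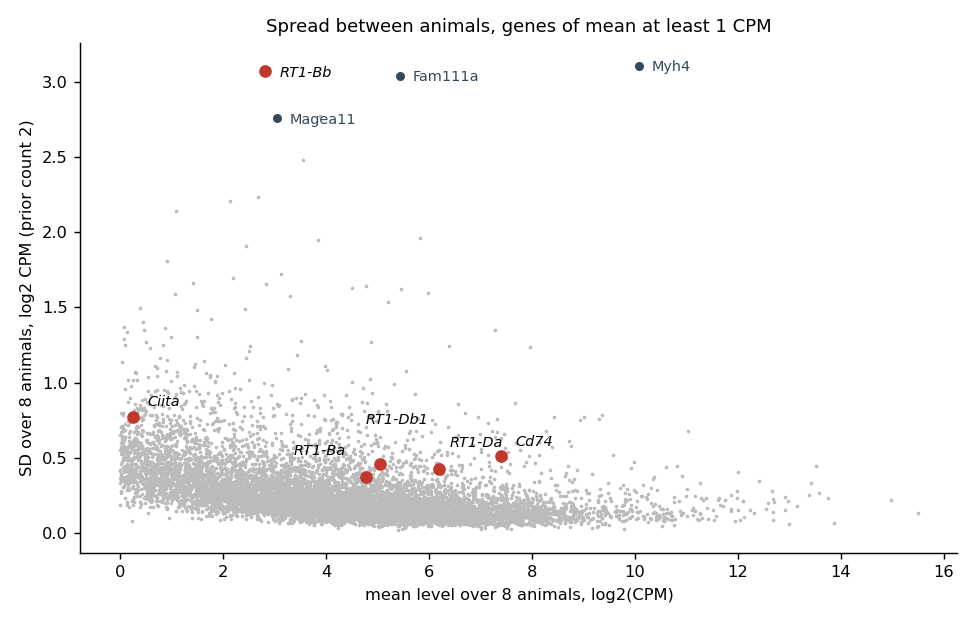
SD over the 8 animals of log2 CPM against mean level, as log2 of the mean CPM, with 1 grey point per gene of mean at least 1 CPM. The members are in red and 3 other genes of wide spread in dark grey-blue, and RT1-Bb at 3.07 stands with Myh4 (3.10) and Fam111a (3.04) above the rest.

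Few genes had both near-zero and well-covered libraries. Of 17055 rows, 3121 of which were at 0 throughout and could not qualify, 48 (0.281%) had at most 3 counts in 1 library and at least 50 in another. They included 3 of the 49 rows whose symbol starts with RT1, all 3 of class II. Besides RT1-Bb these were RT1-Db2, with 1 to 56 counts, and RT1-DOa, with 0 to 51, each low in 1 library. Both reached 50 counts in Sham replicate 7 alone, the deepest library. RT1-Db2 was low in Sham replicate 8 and RT1-DOa in MI replicate 4, the shallowest libraries, and these limits are raw counts not scaled for depth. RT1-Bb was the 1 gene among the 48 that was low in exactly MI replicates 2 and 3 and Sham replicate 7. For 4 of the 48, every library was either at most 3 or at least 50 counts. These were RT1-Bb, Magea11, which was low in MI replicates 3 and 4 and Sham replicate 5, and Hepacam2 and Pou2af1, which were high in Sham replicate 7 alone. The number depended on that library, since without it the 48 became 18. The most abundant of the 48 besides RT1-Bb were Kera, Zp2, Chad, Tnmd, Magea11, Grm4, Il13ra2, Fam151b and F5. The 5 genes whose pattern over the 8 animals was most like that of RT1-Bb were Plp2 (r = 0.97), Crb1 (0.97), Cyb5r3 (0.93), Hnrph1 (0.92) and RGD1310352 (0.92). None of them was near 0 in any animal. Crb1, of wider range than Plp2, was at 6.35, 2.32, 1.69 and 5.07 CPM in MI and 4.76, 7.53, 2.04 and 7.26 CPM in Sham. By the same measure r with RT1-Bb was -0.72 for RT1-Ba, -0.66 for RT1-Da, -0.73 for RT1-Db1, -0.72 for Cd74 and -0.45 for Ciita. All these r values rest on 8 shared libraries and on the split of RT1-Bb into high and near-zero values. The 5 named genes are the top of 10154 ranked. The values are a description, and none was tested.

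The remaining class II genes had few counts. RT1-Db2, a second RT1-D beta gene, had 7, 38, 42 and 13 counts in MI and 13, 14, 56 and 1 in Sham. Its 3 highest values in CPM, 3.56 in MI replicate 3, 2.32 in MI replicate 2 and 2.16 in Sham replicate 7, fell in the 3 libraries near 0 for RT1-Bb, and MI replicate 4 came next at 1.499. As a count per RT1-Db1 count it was 0.0709 in MI replicate 2, 0.0641 in MI replicate 3, 0.0594 in MI replicate 4 and 0.0505 in Sham replicate 7. On that scale the 3 libraries no longer stood apart. RT1-Db2 per RT1-Da count was highest in them, at 0.0342 in MI replicate 2, 0.0316 in MI replicate 3 and 0.0227 in Sham replicate 7. Sham replicate 5 came next at 0.0210, close to Sham replicate 7, and MI replicate 4 was at 0.0198. MI replicate 4 had the lowest RT1-Db1 count per RT1-Da count, 0.334, so the order depended on the partner used. RT1-DOa and RT1-DOb, the chains of the peptide-loading modulator, had 0 to 51 and 2 to 21 counts. RT1-DOb had 5 and 3 counts in MI replicates 2 and 3 and 21 in Sham replicate 7, or 0.306, 0.254 and 0.810 CPM. In CPM this neighbour of RT1-Bb was lowest in Sham replicate 5, at 0.146, and per Cd74 count it was lowest in MI replicate 3, at 0.00090, on 3 counts. RT1-DMa and RT1-DMb, whose product exchanges peptides on class II molecules, had no counts in any library and at most 1 count, respectively. RT1-Ha was also listed at 0, and RT1-Hb had no row in the deposited counts. For rows at or near 0, little RNA and reads not assigned to the gene cannot be told apart.

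MI was compared with Sham to ask whether class II expression in the diaphragm differed 16 weeks after the infarction. No member passed the edgeR quasi-likelihood test, and 0 of 6 had an unadjusted p under 0.05. Over all 10522 genes 0% passed at an adjusted p under 0.05 and 8.14% at an unadjusted p under 0.05. DESeq2 gave an adjusted p for 5 members, all but Ciita, and called 0 of them, against 0.154% of all genes with an adjusted p. Limma-voom called 0 of 6 members and 0% of genes. An unadjusted p under 0.05 was reached by 2 of 6 members without Sham replicate 7, by 1 without MI replicate 3 and by 1 with the range of the animal number as a term. Over all genes 856 of 10522 reached it in the main fit, and 514 of 10546 without Sham replicate 7. Without MI replicate 3 it was 1011 of 10672, and with the animal number term 590 of 10522. The chain genes other than RT1-Bb and Cd74 lay slightly above Sham in MI, RT1-Bb and Ciita below. A log2 fold change above 0 was found for 4 of 6 members, with a median of 0.23, and for 48.7% of all genes, whose median was -0.0070. In CPM the groups overlapped for each of the 6 members, where 4.55% of all genes did not overlap.

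RT1-Ba averaged 29.8 ± 8.15 CPM in the MI animals and 24.7 ± 7.20 in the Sham animals (SD, n = 4 each), which is 0.26 ± 0.23 as a log2 fold change (SE; edgeR adjusted p = 0.756). RT1-Da averaged 82.1 ± 20.4 and 64.1 ± 22.2 CPM, or 0.35 ± 0.25 (0.708), and RT1-Db1 36.9 ± 13.0 against 29.3 ± 9.70 CPM, 0.33 ± 0.29 (0.756). Cd74 averaged 180.0 ± 67.9 against 155.6 ± 69.1 CPM, 0.21 ± 0.35 (0.879). These 4 differences were no larger than the spread between animals. They rested on single libraries, in opposite ways. Without MI replicate 3 they were 0.05, 0.17, 0.07 and -0.09, so that the sign of Cd74 turned. Without Sham replicate 7 they were 0.47, 0.60, 0.57 and 0.55, each with an edgeR adjusted p of 0.867.

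RT1-Bb averaged 5.31 ± 6.05 CPM in MI and 8.70 ± 7.58 in Sham, with -0.68 ± 1.52 as its log2 fold change (edgeR adjusted p = 0.910). With 2 near-zero animals in MI and 1 in Sham, its fold change moved between -1.39 and -0.06 as single libraries were left out. Ciita averaged 0.884 ± 0.622 and 1.49 ± 0.615 CPM, or -0.83 ± 0.47 (0.646). It was -1.40 without MI replicate 3 and -0.54 without MI replicate 1, and did not pass in any fit that gave it an adjusted p, which DESeq2 did not. As a count per Cd74 count, Ciita was at 0.00221, 0.00510, 0.00631 and 0.00483 in MI and at 0.00959, 0.0126, 0.00848 and 0.00820 in Sham. On that scale the groups did not overlap, whereas in CPM they did. Ciita per Cd74 was 1 of several count ratios formed here, and in CPM 4.55% of all genes did not overlap. The ratio rests on 5 to 56 Ciita counts a library, the difference was seen after the values were known, and it was not tested.

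**Figure D5:**
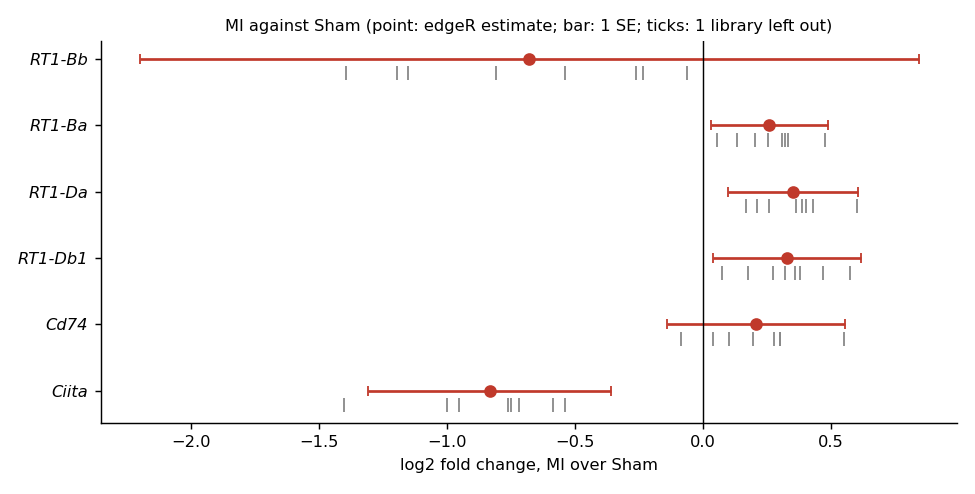
Log2 fold change of MI over Sham for the 6 genes, with the edgeR estimate as a point, 1 SE as the bar, and a grey tick for each fit with 1 library left out. The bars of RT1-Bb and Cd74 cross 0, and a tick of Cd74 lies below 0.

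The regulators and proteases around class II were next. Of 11 measured genes for class II transcription, processing and lysosomal proteolysis, all 11 were tested, 4 had a log2 fold change above 0 and 7 below, and 0 passed. Rfx5, a subunit of the RFX complex, averaged 11.6 ± 0.429 CPM in MI and 10.04 ± 0.429 in Sham (n = 4 each, SD; log2 fold change 0.20 ± 0.11, edgeR adjusted p = 0.639), and it was the 1 gene of the 11 without overlap between groups, against 4.55% of all genes. Nfya, a subunit of NF-Y, was at 2.31 ± 0.899 against 3.44 ± 0.495 CPM (-0.54 ± 0.28, 0.639). Ctss, the protease that trims the invariant chain, had -0.36 ± 0.34, and Ifi30, a lysosomal thiol reductase, -0.08 ± 0.13. The median SD of this list between animals was 0.171 log2 units, below the 0.211 of all genes tested.

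Interferon gamma, which induces Ciita, was itself listed at 0 in every library. Of 13 genes of its signalling, 10 were tested, 4 were above 0 and 6 below, and 0 passed, with a median log2 fold change of -0.013. Cxcl9, a chemokine it induces, averaged 17.3 ± 6.38 CPM in MI and 12.1 ± 2.55 in Sham (0.50 ± 0.25, edgeR adjusted p = 0.639) and was highest in MI replicate 3, at 26.2 CPM. The kinase Jak2 had a log2 fold change of -0.08 ± 0.15 and the chemokine Cxcl10 -0.25 ± 0.73.

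Class I genes, which present peptides from inside the cell on nearly all cells, were taken from a list of 47. Of 46 in the table, peptide-loading genes included, 9 had no counts in any library. Of the 22 that were tested, 12 had a log2 fold change above 0 and 10 below, and 0 passed. Tapbp, the peptide-loading factor tapasin, averaged 20.9 ± 5.05 CPM in MI and 28.7 ± 5.47 in Sham (log2 fold change -0.46 ± 0.20, edgeR adjusted p = 0.601). RT1-A1, a classical class I gene, had -0.36 ± 0.19, RT1-CE10 -0.41 ± 0.24 and RT1-CE16 -0.74 ± 0.45. The median SD of the list between animals was 0.381 log2 units. Among the 22 tested, RT1-CE15 was widest at 0.836, from 1.11 to 7.03 CPM. It was followed by RT1-CE16 at 0.738, from 8.50 to 42.8 CPM, RT1-T24-1 at 0.719 and RT1-A3 at 0.717. RT1-CE3 did not pass the filter and is outside that ranking. It had 2 to 46 counts, or 0.146 to 2.81 CPM, and was highest in MI replicate 2. RT1-CE15 was highest in MI replicate 2 and RT1-CE16 in Sham replicate 8, which was also highest for RT1-Bb. None of the 22 had an SD above 0.836, against 3.07 for RT1-Bb. Many class I genes resemble each other closely, reads may be split between them, and their single values are uncertain. Tap2, a subunit of the peptide transporter, was listed at 0 in every library while its partner Tap1 had a median of 3.45 CPM.

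Cd74 was compared over the 8 animals with markers of dendritic cells, macrophages and B cells, which carry class II. Lists for leukocytes in general, T and NK cells and endothelium were compared as well. In whole tissue, fewer cells of a kind and less RNA per cell cannot be told apart. General leukocyte genes, 7 tested of 8, had a summed level of 79.7 to 120.3 CPM in MI and 64.6 to 171.9 in Sham, and their mean log2 CPM had r = 0.797 with Cd74 (exact permutation p = 0.0198, adjusted over 6 lists 0.0740, rho = 0.619, n = 8). Over the 6 animals without MI replicate 3 and Sham replicate 7 it was 0.612 (exact permutation p = 0.197). With 1 library left out it passed without MI replicate 3 (r = 0.883, adjusted permutation p = 0.0393) and without MI replicate 4 (r = 0.882, adjusted permutation p = 0.0429). It was weakest without Sham replicate 7 (r = 0.709, adjusted permutation p = 0.306). T and NK cell genes had r = 0.792 (adjusted permutation p = 0.0740, n = 8), which became -0.013 over those 6 animals and so rested on the 2 left out. Dendritic cell genes had r = 0.679 (adjusted permutation p = 0.125, n = 8) and 0.0062 over the 6, and macrophage genes 0.523 (0.229) and 0.378. The 1 tested B cell gene had r = 0.549 (adjusted permutation p = 0.229, n = 8), which turned to -0.537 over the 6. Endothelial genes had r = -0.120 (0.768).

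Sham replicate 7 stood apart in these markers. Its B cell genes, 8 in the table of which 1 passed the filter, summed to 21.0 CPM, against 1.34 to 3.73 CPM in the other 7 libraries. Cd79b, a part of the B cell receptor, was at 6.94 CPM there and Ms4a1, which encodes CD20, at 5.90, while the transcription factor Pax5 was at most 0.115 CPM in any library. Its macrophage genes summed to 393.1 CPM and its dendritic cell genes to 52.2 CPM, each the highest of the 8. The part of these cells in the level of Cd74 in that animal was not tested. MI replicate 3, the other animal high in Cd74, had a dendritic cell sum of 34.6 CPM, second of the 8, but a macrophage sum of 214.4 CPM, below MI replicate 4 at 301.2. MI replicate 2, also near 0 for RT1-Bb, had a summed dendritic cell level of 25.4 CPM and the lowest macrophage sum of the 8, 147.7 CPM. The 3 libraries near 0 for RT1-Bb thus ran from the lowest to the highest macrophage sum. Skeletal muscle genes such as Acta1 and Ckm summed to 97007 to 128659 CPM, as in the labelled tissue.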

How the data were processed

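RNA was taken from 8 snap-frozen rat diaphragms with TRI Reagent, and libraries were made with SMARTer Ultra Low input and KAPA Hyper kits, per the labels' protocols. The table deposited by the authors holds raw whole-number counts, with a row for each gene symbol and a column for each rat. The submitters' processing notes list STAR 2.5.0a, bcl2fastq, Cufflinks, TopHat and TopHat2, and rn5 as the genome build. The counting program, the annotation and the treatment of reads that map to several places or carry alleles unlike the reference are unknown (not given in the sources used here). A low count of a polymorphic gene can mean little RNA or reads not assigned to it, and a count table cannot tell these apart.

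Groups came from the labels. Each animal gave 1 library, and libraries of a group differed beyond sampling noise (chi-square per degree of freedom 12.1 to 44.3). Genes were tested with edgeR 4.0.16 (R 4.3.3): TMM scaling, filterByExpr, robust quasi-likelihood F test, two-sided, Benjamini-Hochberg adjustment over 10522 genes, threshold 0.05. CPM used TMM library sizes. Alternatives were RLE factors, library totals alone, no filter, 1 CPM in 4 libraries, DESeq2 1.42.0, limma-voom (limma 3.58.1), no robust estimation, a threshold of 0.1, the range of the animal number as a term, a prior count of 0.5 and each library left out. Leaving out MI replicate 3 with Sham replicate 7 was added after seeing the data. Correlations used log2 CPM with exact permutation over all pairings. The fits were tested on simulated data with the same dispersion for every gene, a setting unlike the split values of RT1-Bb. Named genes were the members, the other class II genes and up to 4 of each pathway list with the smallest p. Also named were the 4 tested class I genes of widest spread and the 5 genes most like RT1-Bb and Cd74. To these came some of the 8 of widest spread and up to 10 of the rows with both low and high libraries. Hepacam2, Pou2af1, RT1-CE3 and single cell markers were chosen after their values were seen. The members and lists were chosen with earlier results of these data known.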

Additional observations from a re-analysis of the deposited data

Results flagged for a closer look

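In 38 sets of 4 values (members, tested class II genes and count ratios, by group), 6 had a value that stood far from the other 3 by Dixon's criterion, which chance gives in about 1 in 20 sets, and the sets share genes and libraries. MI replicate 3 stood above the other MI animals in 3 members, at 41.99 CPM for RT1-Ba, 112.4 for RT1-Da and 281.7 for Cd74. Sham replicate 7 stood above the other Sham animals in RT1-DOa, at 1.97 CPM. The count of RT1-Db1 per RT1-Da count was 0.334 in MI replicate 4, where the other MI animals had 0.472 to 0.493. It was 0.505 in Sham replicate 8, where the other Sham animals had 0.439 to 0.450. RT1-Bb was not picked out this way, since in MI its 4 values formed 2 pairs.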

How the results depend on the processing

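No member passed in any of the 17 alternatives, with no adjusted p for Ciita under DESeq2. DESeq2 called 14 genes in all, and 0 to 1 were called as single libraries were left out. The log2 fold change of Cd74 ran from -0.086 without MI replicate 3, where its sign turned, to 0.548 without Sham replicate 7, and the other 5 members kept theirs, with the sign of RT1-Bb kept at -0.05 in the closest fit. With a prior count of 0.5 the SD of RT1-Bb was 3.77 and the range of its log2 ratio to Cd74 grew to 10.96. That SD was 2.74 to 3.26 with a library left out. The median r of the 10 member pairs was 0.864 to 0.972 with a library left out and 0.749 without MI replicate 3 and Sham replicate 7. The median r of Cd74 with the 6 marker lists was 0.357 to 0.738 and 0.063 in the same order. Its r with endothelial genes ran from -0.256 to 0.084 with a library left out, and turned without MI replicate 3. Rows with both low and high libraries numbered 10 with a limit of 0 counts, 18 with a minimum of 100, and 18 to 47 with a library left out. No paired analysis was possible because the labels number the animals 1 to 8 across both groups.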
